A study of Sus scrofa with 8 samples.

Results

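The circadian clock genes PER1, PER2, CRY1, CRY2, CLOCK, NR1D1, NR1D2, DBP and TEF were examined in the olfactory epithelium (OE) of sows. They were chosen by gene name, and the name table matched 9 of the 10 genes sought among the 22516 genes of the files. PER3 matched no identifier and was not analysed here. The OE lines part of the nasal cavity and houses the neurons that detect odors. Tissue of 4 sows gave 8 libraries, and all sows were 8 months old, in estrus and offspring of a Landrace sire and a Rongchang dam. In the androstenone treatment group, 2 sows had Boarmate, a commercial spray whose main ingredient is the boar pheromone androstenone, sprayed on the nasal cavity, and OE was collected 30 min later. The control group was 2 sows that received no solution, so that the groups differ in the act of spraying and the carrier of the spray as well as in androstenone. OE from either side of the nose went into a library of its own, hence 4 libraries per group. No source used here tells which of them shared a sow, so p-values take libraries as replicates and are smaller than 2 sows per group would allow. Nor do these sources tell at what time of day each sow was killed, so a difference in time and an effect of the spray cannot be told apart in this design.

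The circadian clock is a feedback loop of transcription factors that runs in nearly every cell. CLOCK and its partner BMAL1 (also ARNTL) activate the PER, CRY and NR1D genes and the genes of DBP and TEF. The PER and CRY proteins then repress CLOCK and BMAL1, while the nuclear receptors NR1D1 and NR1D2 (REV-ERB alpha and beta) repress the BMAL1 gene, which the ROR receptors activate. DBP, TEF and HLF carry the rhythm to output genes that NFIL3 represses. In peripheral tissues, NR1D1, DBP and the PER genes rise and fall in nearby phases over the day, and BMAL1 and NPAS2 lie near the opposite phase, so these genes are often read as a clock face. PER1 and PER2 are also induced within an hour by signals through CREB, and PER1 by glucocorticoids.

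Levels are given as CPM, counts relative to the library total after TMM scaling, a correction for differences in the make-up of libraries. Levels of different genes are compared only as deposited TPM, which also corrects for transcript length. The exception is the choice of the marker genes named below, which were ranked by mean CPM. Control 1 was low in deposited counts, with a total of 4177968, and the other 7 libraries had 81579983 to 100685797. The paper lists for its Control 1 a number of clean reads within the range of the other libraries. The low total is thus one of the deposited counts, and its cause was not tested. The 9 clock genes had 80 to 1044 counts each in control 1 and at least 1004 in every other library, so all of them were well above detection and all passed the minimum of 1 count. For CLOCK, the least counted, the 80 counts of control 1 gave a 95% exact Poisson interval of 13.0 to 20.5 CPM, which covers counting error only. Control 4 stood apart by its bone genes, with a summed level of 168524 CPM over 8 of 8 bone markers (COL1A1 and SPP1 the most abundant) against 1269 to 13182 CPM in the other libraries. Of 12 motile cilium markers, 11 were matched, with FOXJ1 and DNAH9 highest in mean CPM. The summed level of these 11 markers was 3959, 2863 and 3121 CPM in control 3, androstenone 1 and androstenone 2. It was 762 to 1690 CPM in the other libraries. Of 12 markers of olfactory neurons, 10 were matched, and their sum was 290 to 402 CPM. STOML3 and ANO2 held most of it and ran opposite ways. In control 3, androstenone 1 and androstenone 2, ANO2 was at 19.0, 52.4 and 19.3 CPM and STOML3 at 224, 216 and 215 CPM, while in the other 5 libraries ANO2 was at 159 to 292 CPM and STOML3 at 48.8 to 92.9 CPM, so that the sum does not show an even content of these neurons. LHX2 was at 0 counts in control 1, control 3 and control 4, RTP1 was at 0 in control 1, and neither exceeded 11 counts in any library. GNG13 was at 1 to 7 counts, and CNGA4 and EBF2 reached at most 1.70 and 1.58 CPM. The remaining matched markers were higher, with ADCY3 at 18.0 to 43.3 CPM, GNAL at 1.46 to 22.0 CPM and CNGA2 at 0.737 to 12.2 CPM. The further markers OMP and CNGB1 matched no identifier. Lymphocyte marker sums (8 of 8, MS4A1 and CD79A highest in mean CPM) were 128 to 654 CPM in the control and 200.2 to 668 CPM in the androstenone libraries. Nasal gland sums (8 of 10, PIGR and BPIFA1 highest in mean CPM) were 4959 to 14885 and 4513 to 12178 CPM in the same order. Between the groups, 8 of 8 bone markers and 2 of 8 gland markers (SCGB1A1 and LPO) had an unadjusted p below 0.05, all lower with androstenone, and 0 of the other marker genes did. Of all genes tested, 6.24% were lower at this p. The smallest adjusted p was 0.393 for bone and 0.429 for gland markers in edgeR's quasi-likelihood test. The groups overlapped for every bone and gland marker.

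Androstenone and control libraries were compared to ask whether the clock genes differ together between the groups, as genes that follow the time of day would. None of the 9 clock genes differed between the groups beyond the spread between libraries. By edgeR (quasi-likelihood test) 0 of 9 had an unadjusted p below 0.05, where 11.3% of the 21318 genes tested did, 0 of 9 passed the study's cutoff, which adds an absolute log2 fold change of 1 or more, where 6.42% did, and 0 of 9 had groups that did not overlap, where 6.53% of the genes tested did. The unadjusted p-values lay between 0.136 (DBP) and 0.912 (CLOCK), and the p-values adjusted over all genes tested between 0.537 and 0.973. The log2 fold change was below 0 in 7 of 9 clock genes and in 51.8% of all genes tested. Its median was -0.12 over the clock genes and -0.021 over all genes, and the median of its absolute size was 0.29 and 0.36. With 9 genes, a count of 0 lies close to the background share. Over all genes, 0 passed an adjusted p of 0.05 in this test and 2415 had an unadjusted p below 0.05. With the same adjustment, limma voom gave 0 genes, edgeR's exact test 157, edgeR's likelihood ratio test 200 and DESeq2 670, and 0 of the 9 clock genes in each of these tools. The count of clock genes below an unadjusted p of 0.05 was also 0 with control 1 and control 4, the low-count and the bone-rich library, both left out.

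**Figure D1:**
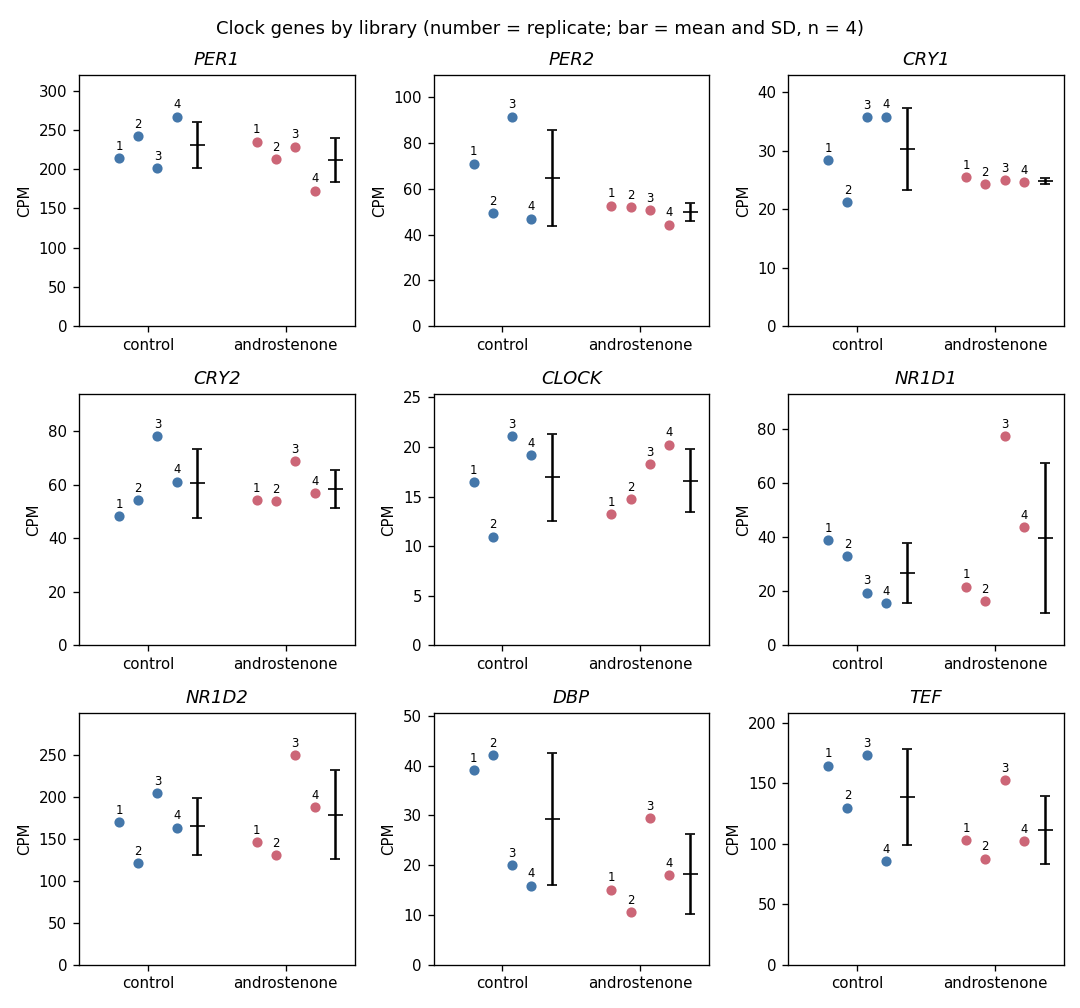
CPM of the 9 clock genes in each library, in panels with a vertical axis from 0. Points are libraries with their replicate number, control in blue and androstenone in red, and bars are the mean and SD of 4 libraries. The groups overlap in every panel, NR1D1 reaches 77.3 CPM in androstenone 3, and the 4 androstenone values of CRY1 lie between 24.3 and 25.4 CPM.

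The PER and CRY genes encode the repressors of the loop. PER1 (ENSSSCG00000017983, chromosome 12 of Sscrofa11.1 from 53361863 to 53376723 in RefSeq) was at 214, 242, 201 and 267 CPM in control 1 to 4 and at 235, 213, 229 and 173 CPM in androstenone 1 to 4. Control 4 was highest and androstenone 4 lowest, and the other 6 libraries were interleaved. The means were 231 ± 29.4 and 212 ± 28.1 CPM (SD, n = 4 libraries each). Its log2 fold change, androstenone over control, was -0.12 with a 95% interval of -0.53 to 0.28, or 0.918-fold with an interval of 0.694 to 1.22 (edgeR's quasi-likelihood test, adjusted p = 0.788). This was the narrowest interval of the 9 genes. PER2 (chromosome 15 from 137793419 to 137837854) was at 70.9, 49.3, 91.4 and 46.9 CPM in the controls, against 52.5, 52.0, 50.7 and 44.2 CPM in the androstenone libraries. Control 1 and control 3 lay above every androstenone library, while control 2 and control 4 lay among them. The means were 64.6 ± 20.9 and 49.9 ± 3.83 CPM (SD, n = 4 each), and the log2 fold change was -0.37 with an interval of -0.90 to 0.15 (adjusted p = 0.545 from the same edgeR test).

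CRY1 (chromosome 5 from 13275265 to 13429566) was at 28.3, 21.2, 35.7 and 35.8 CPM in the controls, against 25.4, 24.3, 25.0 and 24.6 CPM in the androstenone libraries. Control 2 lay below and the other 3 control libraries above all androstenone libraries. Its SD was 6.97 CPM in the control group and 0.495 CPM in the androstenone treatment group, and the log2 fold change was -0.29 with an interval of -0.73 to 0.15 (adjusted p = 0.573 by edgeR's quasi-likelihood fit). The outcome rests on control 2. Without it the groups did not overlap and the log2 fold change was -0.43 (unadjusted p = 0.0293 in edgeR). In that setting 8.49% of all genes tested had an unadjusted p below 0.05. Groups also fail to overlap more easily with fewer libraries. The adjusted p of CRY1 stayed between 0.512 and 0.893 over all alternatives. The RefSeq interval of CRY1 also holds MTERF2, TMEM263 and 2 pseudogenes. Whether any of them shares transcript sequence with CRY1 was not examined. CRY2 (chromosome 2 from 16587101 to 16620380) was at 48.3, 54.3, 78.2 and 61.0 CPM in the controls, against 54.1, 53.8, 68.9 and 56.9 CPM in the androstenone libraries. The lowest and the highest value were both control libraries, with all androstenone libraries between them. Its log2 fold change was -0.051 with an interval of -0.47 to 0.37 (adjusted p = 0.925 from the same edgeR test), and it was 0.097 without control 3.

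CLOCK, the activator, was the least abundant of the 9 genes. It lies on chromosome 8 from 54793323 to 54910192, where the last part of TMEM165 overlaps it. Its level was 16.4, 11.0, 21.1 and 19.2 CPM in the controls, against 13.2, 14.7, 18.2 and 20.2 CPM in the androstenone libraries. Control 2 was lowest and control 3 highest, so the androstenone libraries fell within the control range. Its fitted log2 fold change was -0.029 with an interval of -0.60 to 0.54 (adjusted p = 0.973 by edgeR's quasi-likelihood fit). Its sign depended on the setting, with 0.046 when counts were scaled to the library total alone. TMEM165 had a log2 fold change of 0.45 (adjusted p = 0.425 in the same edgeR test).

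NR1D1, the repressor of BMAL1, varied most of the 9 genes. It was at 38.8, 32.9, 19.5 and 15.7 CPM in control 1 to 4 and at 21.7, 16.4, 77.3 and 43.5 CPM in androstenone 1 to 4. Within each group the libraries split, with control 1, control 2, androstenone 3 and androstenone 4 at 32.9 CPM or above and the other 4 libraries at 21.7 CPM or below. The means were 26.7 ± 11.0 and 39.7 ± 27.7 CPM (SD, n = 4 each). Its log2 fold change was 0.58 with an interval of -0.59 to 1.75 (adjusted p = 0.66 by edgeR's quasi-likelihood fit), and 0.032 without androstenone 3. The 3 libraries with the highest motile cilium sums (control 3, androstenone 1 and androstenone 2) and the bone-rich control 4 were the 4 with the lowest NR1D1, and the part of tissue make-up in this was not tested. In bulk tissue, fewer cells of a type and less RNA per cell cannot be told apart. NR1D1 spans 22263549 to 22274131 on chromosome 12, and THRA, a thyroid hormone receptor gene, overlaps it from 22270506 to 22274131. No source used here tells whether counting used strand, so reads of the overlap cannot be assigned with certainty. THRA was at 88.1, 81.7, 61.4 and 70.7 CPM in the controls, against 38.6, 33.1, 78.9 and 54.5 CPM in the androstenone libraries, and its value in androstenone 3 lay within the control range. For THRA the log2 fold change was -0.56 with an interval of -1.20 to 0.086 (adjusted p = 0.482 in the same edgeR test).

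NR1D2, its paralog with a similar role (chromosome 13 from 10756954 to 10791219), was at 170, 121, 204 and 163 CPM in the controls, against 146, 131, 250 and 188 CPM in the androstenone libraries. Androstenone 3 was again highest, control 2 was lowest, and control 3 was second. The fitted difference was a log2 fold change of 0.12 with an interval of -0.47 to 0.70 (adjusted p = 0.866 by edgeR's quasi-likelihood fit), and it turned to -0.089 without androstenone 3.

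DBP and TEF encode output factors of the clock. DBP (chromosome 6 from 53986955 to 53993044) was at 39.0, 42.1, 20.0 and 15.9 CPM in control 1 to 4 and at 15.1, 10.5, 29.4 and 17.9 CPM in androstenone 1 to 4. The highest values were those of control 1 and control 2, followed by androstenone 3. The means were 29.3 ± 13.2 and 18.2 ± 8.06 CPM (SD, n = 4 each), and the log2 fold change was -0.68 with an interval of -1.62 to 0.26 (adjusted p = 0.537 by edgeR's quasi-likelihood fit). Without androstenone 3 it was -1.01 (unadjusted p = 0.0393 in edgeR), and the groups still overlapped through control 4. In that setting 8.93% of all genes tested had an unadjusted p below 0.05. The adjusted p of DBP was between 0.33 and 0.893 over all alternatives. TEF (chromosome 5 from 7119354 to 7135171) was at 165, 130, 173 and 85.7 CPM in the controls, against 103, 87.7, 153 and 102 CPM in the androstenone libraries. Control 4 was lowest of all, and androstenone 3 lay above control 2. The log2 fold change was -0.31 with an interval of -0.93 to 0.30 (adjusted p = 0.65 from the same edgeR test). DBP and NR1D1, which share a phase in the textbook clock, had fold changes of opposite sign, and neither passed the test.

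**Figure D2:**
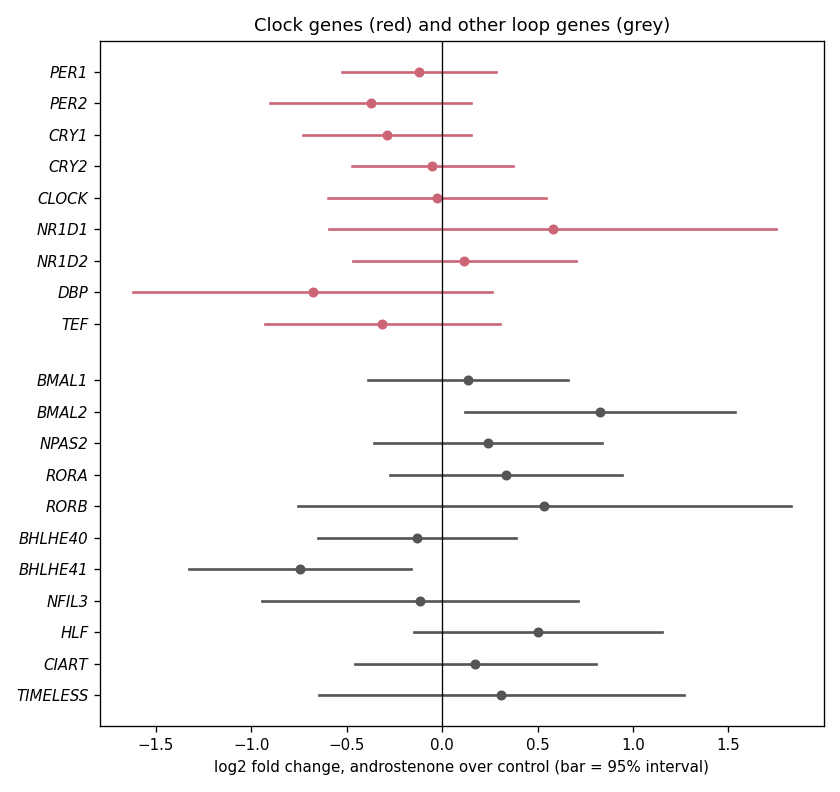
Fitted log2 fold change (androstenone over control, horizontal axis) of the 9 clock genes in red and of 11 other genes of the loop in grey, with bars for the 95% interval from edgeR's quasi-likelihood test. The interval holds 0 for all 9 clock genes, and does not for BMAL2 and BHLHE41.

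Compared per transcript length, PER1 was the most abundant of the 9 genes at 62.3 ± 7.79 TPM over the 8 libraries (SD). NR1D2 followed at 48.7 ± 12.5 TPM and TEF at 44.1 ± 15.4 TPM. Both orders, PER1 above NR1D2 and NR1D2 above TEF, held in 5 of 8 libraries, so these neighbours were not separated beyond their spread. CRY2 was at 21.1 ± 4.11 TPM, below TEF in all 8 libraries. DBP at 20.0 ± 11.4 TPM, NR1D1 at 19.0 ± 11.6 TPM and PER2 at 12.9 ± 4.51 TPM came next, with overlapping ranges. CRY1 was at 10.5 ± 2.14 TPM. CLOCK, at 4.28 ± 0.971 TPM, was below CRY1 in all 8 libraries and was separated from it, since its highest value of 5.85 TPM was below the lowest CRY1 value of 8.91 TPM.

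The spread between libraries differed from gene to gene. From the lowest to the highest library, PER1 spanned 1.55-fold, CRY2 1.62-fold, CRY1 1.69-fold, CLOCK 1.93-fold, TEF 2.02-fold, NR1D2 2.06-fold and PER2 2.07-fold. DBP spanned 4.01-fold and NR1D1 4.93-fold. Against the 11479 genes with a mean of at least 10 CPM, the pooled within-group SD of log2 CPM was larger than that of 83.5% of genes for NR1D1 and of 75.9% for DBP, but of 18.8% for PER1. The other 6 clock genes lay between 29.5% and 56.0%. By library, 7 of the 9 clock genes were above their own median in control 3 and 7 in androstenone 3, 6 in control 1, 4 in control 2, 4 in control 4 and 4 in androstenone 4. Androstenone 1 had 3 above and androstenone 2 had 1, so that both ends of this order held an androstenone library. Control 3 was the highest library for 4 clock genes, and control 4 and androstenone 3 for 2 each.

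Of 11 other genes of the loop found among 13 symbols sought, 2 of which were older names of BMAL1 and BMAL2, 1 had an unadjusted p below 0.05 and was higher in the androstenone treatment group (5.09% of all genes tested), and 1 was lower (6.24%). After adjustment over all genes 0 of 11 passed in edgeR's quasi-likelihood test. The median log2 fold change of the 11 was 0.24. BMAL1 (ENSSSCG00000013397), the partner of CLOCK, was at 12.3, 9.78, 8.59 and 12.4 CPM in the controls, against 10.1, 9.32, 14.7 and 13.1 CPM in the androstenone libraries. Androstenone 3 and androstenone 4 were above every control library and the other 2 were not, and the log2 fold change was 0.14 with an interval of -0.39 to 0.66 (adjusted p = 0.82 in edgeR). NPAS2, which can replace CLOCK, was at 23.8, 19.9, 13.8 and 17.0 CPM and at 18.0, 16.8, 31.6 and 21.5 CPM in the same order. Only androstenone 3 exceeded control 1, and the log2 fold change was 0.24 (adjusted p = 0.712 in edgeR).

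BMAL2, a paralog of BMAL1, was at 7.40, 6.78, 7.37 and 7.58 CPM in the controls, against 8.42, 8.73, 20.4 and 14.1 CPM in the androstenone libraries. The groups did not overlap, as in 3.89% of the genes tested in this direction, and the SD of the control libraries was 0.348 CPM. In TPM they did overlap, since androstenone 1 at 1.83 TPM lay below control 1 at 1.92 and control 3 at 1.89 TPM. The log2 fold change was 0.83 with an interval of 0.12 to 1.54 (unadjusted p = 0.0267, adjusted p = 0.416 in edgeR's quasi-likelihood test). Its unadjusted p was 0.0509 without control 1, 0.06 without control 2, 0.0856 without androstenone 3, when the log2 fold change was 0.52, and 0.0589 without androstenone 4. It was also above 0.05 with limma voom (0.0596), with limma on log2(TPM + 0.1) (0.116) and log2(TPM + 1) (0.105), and without control 1 and control 4 together (0.101). BHLHE41 (DEC2), a repressor that acts on CLOCK and BMAL1, was at 53.6, 49.0, 49.8 and 30.8 CPM in the controls, against 25.6, 17.9, 32.3 and 33.4 CPM in the androstenone libraries. Control 4 lay among the androstenone libraries and the other control libraries above all of them. This gave a log2 fold change of -0.75 with an interval of -1.33 to -0.16 (unadjusted p = 0.0182, adjusted p = 0.416 in the same edgeR test). The unadjusted p stayed below 0.05 with each library left out, at most 0.0499, and was 0.0682 with counts scaled to the library total alone. Its relative BHLHE40 (DEC1) had a log2 fold change of -0.13 (adjusted p = 0.824 in edgeR).

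NFIL3, the repressor at the sites where DBP activates, was at 5.96, 6.09, 7.27 and 17.1 CPM in the controls, against 9.59, 7.93, 8.14 and 8.12 CPM in the androstenone libraries. Control 4 alone exceeded 10 CPM, and it was the bone-rich library. The log2 fold change was -0.12 (adjusted p = 0.913 in edgeR) and 0.38 without control 4. HLF, the third of the DBP family, was at 49.7, 48.9, 37.1 and 23.1 CPM and at 49.6, 48.7, 79.2 and 47.0 CPM in the same order, with androstenone 3 apart from the rest. Its log2 fold change was 0.50 with an interval of -0.15 to 1.15 (adjusted p = 0.516 in edgeR). CIART, a further repressor of CLOCK and BMAL1, was at 20.1, 17.6, 15.4 and 13.8 CPM and at 16.0, 12.2, 28.5 and 18.5 CPM, again with its highest value in androstenone 3. CIART had a log2 fold change of 0.17 (adjusted p = 0.809 in edgeR) and -0.099 without androstenone 3. RORA, an activator of the BMAL1 gene, had a log2 fold change of 0.33, and RORB, with 6 counts in control 1, one of 0.54. TIMELESS, a replication fork protein, had a log2 fold change of 0.31. The unadjusted p-values of RORA, RORB, BHLHE40 and TIMELESS were 0.242, 0.37, 0.577 and 0.478.

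**Figure D3:**
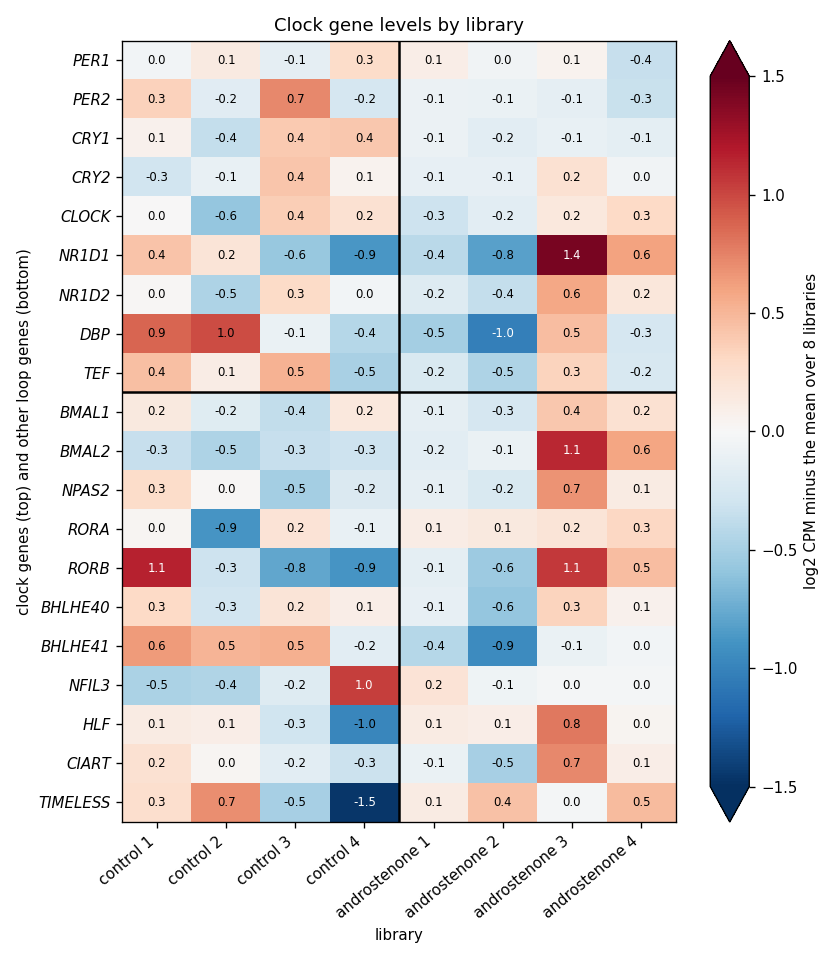
Level of each gene (rows) in each library (columns) as log2 CPM minus the mean over the 8 libraries, in red where above and blue where below, with the 9 clock genes above the black line and 11 other loop genes below it. Androstenone 3 has the highest value of 2 clock genes and of 6 other loop genes, and control 4 the lowest of 2 and of 3.

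Androstenone 3 held the highest level of NR1D1 and NR1D2, and of the other loop genes that of BMAL1, BMAL2, NPAS2, BHLHE40, HLF and CIART. NR1D1 was thus high in this library together with BMAL1 and NPAS2, which lie near the opposite phase. Not all genes of a phase near NR1D1 were high there. DBP, PER1 and PER2 were at 0.46, 0.056 and -0.14 in log2 CPM from their mean over the 8 libraries. In control 4, the lowest level was that of NR1D1, TEF, RORB, HLF and TIMELESS. In androstenone 2 it was that of DBP, and among the other loop genes of BHLHE40, BHLHE41 and CIART.

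Ratios between genes of the loop were taken inside each library, where no scaling between libraries enters, and are given with no test. The log2 ratio of NR1D1 over BMAL1 in TPM was 1.62, 1.73, 1.16 and 0.32 in control 1 to 4 and 1.08, 0.79, 2.37 and 1.71 in androstenone 1 to 4. The group means were 1.21 ± 0.64 and 1.49 ± 0.70 (SD, n = 4 libraries each), so the difference of 0.28 was smaller than either SD. DBP over NFIL3 was 2.90, 2.98, 1.65 and 0.086 in the controls, against 0.84, 0.60, 2.04 and 1.33 in the androstenone libraries. Its means were 1.90 ± 1.36 and 1.20 ± 0.64 (SD, n = 4 each). The difference of -0.70 was within the pooled SD of 1.06 and the control SD, but exceeded the androstenone SD in size. Control 1 and control 2 were high in this ratio and control 4 was lowest. PER2 over CRY1 was 0.55, 0.44, 0.58 and -0.39 in the controls, against 0.27, 0.32, 0.24 and 0.071 in the androstenone libraries, a difference in means of -0.068. With control 4 left out, the differences in the order given were -0.015, -1.31 and -0.30.

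**Figure D4:**
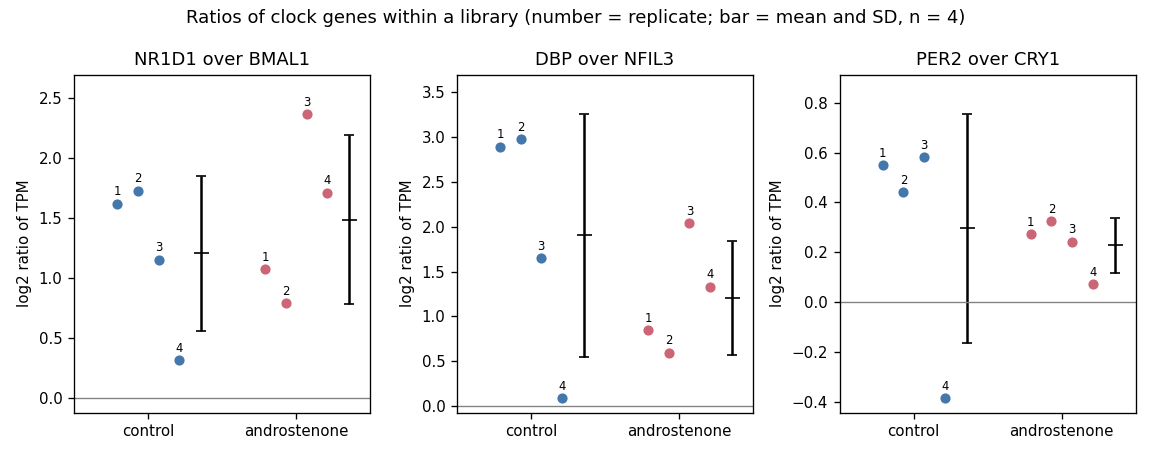
Log2 ratio of TPM within each library (vertical axis) for NR1D1 over BMAL1, DBP over NFIL3 and PER2 over CRY1. Points are libraries with their replicate number, bars are the mean and SD of 4 libraries per group, and the grey line marks equal levels. Control 4 is lowest in all 3 panels, and the groups overlap in each.

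A further list held proteins that modify the clock proteins, such as casein kinases. Of 8 such genes matched, 0 had an unadjusted p below 0.05 in edgeR's quasi-likelihood test, and their log2 fold changes lay between -0.34 and 0.33. Of 10 output genes, 1 had an unadjusted p below 0.05. With 11.3% of all genes tested below this p, both counts lie close to the background. The output gene was NAMPT, the rate-limiting enzyme of NAD salvage, which was at 78.7, 46.1, 116 and 60.3 CPM in the controls, against 104, 109, 147 and 117 CPM in the androstenone libraries. Control 3 lay among the androstenone libraries and the other 3 control libraries below them. Its log2 fold change was 0.67 with an interval of 0.016 to 1.32 (unadjusted p = 0.0458, adjusted p = 0.437 in edgeR). The unadjusted p was 0.00356 without control 3, between 0.0561 and 0.117 without any other library, and 0.0502 to 0.0757 with edgeR's exact test, RLE scaling, library totals, the filterByExpr filter or limma on log2 TPM. Without control 1 and control 4 together it was 0.238 for NAMPT.

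PER1 is also a target of glucocorticoids and of the pathways that induce immediate early genes, and these lists were set beside it. Of 9 glucocorticoid response genes matched, 1 had an unadjusted p below 0.05, a share close to the 11.3% of all genes tested. PDK4, a mitochondrial kinase, was at 6.90 to 17.1 CPM in the controls, against 4.63 to 9.29 CPM in the androstenone libraries, with overlap and a log2 fold change of -0.82 (unadjusted p = 0.0384, adjusted p = 0.429 in edgeR). Without control 4, its highest library, this was -0.55 (unadjusted p = 0.109), and the unadjusted p was also above 0.05, at 0.0576 to 0.096, without control 1, control 2, androstenone 2, androstenone 3 or androstenone 4 and at 0.0566 with limma voom. FKBP5, TSC22D3, SGK1 and ERRFI1 had log2 fold changes of -0.029, 0.037, 0.20 and -0.99, with adjusted p of 0.982, 0.959, 0.595 and 0.483 in edgeR. The value of ERRFI1 rests on control 4, at 38.4 CPM against 8.01 to 13.6 CPM in the other controls, and was -0.21 without it (unadjusted p = 0.444), and -1.21 and -1.22 without control 1 and control 2 (unadjusted p = 0.0414 and 0.0391). Of 14 immediate early genes, 4 had an unadjusted p below 0.05, all lower in the androstenone treatment group, where 6.24% of all genes tested were lower at this p, and 0 an adjusted p below 0.05 in edgeR's quasi-likelihood test. EGR1 was at 42.5, 85.6, 40.3 and 82.1 CPM in the controls, against 23.6, 33.0, 16.7 and 19.5 CPM in the androstenone libraries, without overlap, as in 2.64% of the genes tested in this direction. Its log2 fold change was -1.43 with an interval of -2.19 to -0.68 (unadjusted p = 0.00221, adjusted p = 0.378 in edgeR). The adjusted p of EGR1 was between 0.00768 and 0.893 over all alternatives, and its unadjusted p was at most 0.0085. FOS, at -1.17, and JUN, at -0.56, had unadjusted p-values of 0.00833 and 0.0263. The adjusted p of FOS was between 0.0505 and 0.893 over all alternatives. The p of JUN was above 0.05 without control 2 (0.0681), control 4 (0.0625), androstenone 3 (0.0583) or androstenone 4 (0.0676). NR4A1, an orphan nuclear receptor and the fourth of these genes, was named after its values were seen and was at 71.6 CPM in control 2 and at 7.03 to 16.1 CPM in the other 7 libraries. PER1 stood at -0.12 beside them, and the difference between PER1 and these genes was not tested.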

How the data were processed

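The members and gene lists were chosen with earlier results of these data known. Read trimming by the authors used fastp 0.23.1, and Kallisto 0.48.0 then estimated abundance against the Ensembl release 108 cDNA of Sscrofa11.1. For each gene and library they deposited an estimated count, without normalization, and a TPM value. No source used here says how transcripts were summed to genes. After rounding, counts of genes with 1 or more in total were scaled by TMM and tested with the quasi-likelihood method of edgeR 4.0.16 in R 4.3.3, with treatment as sole term and Benjamini-Hochberg adjustment over 21318 genes. The study's cutoff is an unadjusted p below 0.05 with an absolute log2 fold change of 1 or more. Intervals of fold changes are 95% intervals from the standard error and the total degrees of freedom of this fit, residual and prior together. Symbols came from a name table that matched 15527 of 22516 identifiers, and positions from RefSeq by symbol. Alternatives used DESeq2 1.42.0, limma 3.58.1 and the settings named in the closing section. Genes named were the 9 clock genes, the other loop genes, and genes of the modifier and output lists with an unadjusted p below 0.05. The glucocorticoid and immediate early lists each gave the 3 with the smallest p, with FKBP5, TSC22D3 and FOS. Each cell type list gave the 2 markers with the highest mean CPM. MTERF2, TMEM263, TMEM165 and THRA were named because they overlap a clock gene. LHX2 and RTP1 were named because they were at 0 in some libraries, and OMP and CNGB1 because they were not matched. GNG13, CNGA4, EBF2, ADCY3, GNAL, CNGA2, SCGB1A1, LPO, NR4A1 and the genes of the closing observations were named after their values were seen. Some genes of the loop and modifier lists are not reported here. The PER3 over NPAS2 ratio and the promoter motifs planned were not analysed here.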

Additional observations from a re-analysis of the deposited data

Results flagged for a closer look

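In 78 groups of 4 libraries, the gap of the highest or lowest library to its nearest neighbour was compared with the range of the group, and 10 groups held a library far from the other 3. Chance alone gives about 1 in 20 such groups, and groups that share a library are not independent. Among the clock genes themselves there was no such library. Of the other loop genes and ratios, these were RORB in control 1 at 1.23 CPM, NFIL3 in control 4 at 17.1 CPM and in androstenone 1 at 9.59 CPM, HLF in androstenone 3 at 79.2 CPM, and the log2 ratio of PER2 over CRY1 in control 4 at -0.39. FOS stood apart in androstenone 2 at 34.0 CPM. Of the marker sums, bone stood apart in control 4 at 168524 CPM, olfactory neuron markers in control 2 at 362 CPM and lymphocyte markers in androstenone 4 at 668 CPM. Most of the neuron sum in control 2 was ANO2, at 264 CPM. Summed as TPM, the neuron markers of control 2 did not stand apart, at 112 against 80.6 to 215 TPM in the other controls. Total counts stood apart in control 1 at 4177968.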

How the results depend on the processing

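The low total of deposited counts limits the values of control 1 most, and 2 sows per group limit every test. The number of clock genes with an unadjusted p below 0.05 was 0 under every alternative with all libraries, and ranged from 0 to 1 with each library left out (1 without control 2 or androstenone 3). The number whose groups do not overlap was 0 with RLE, library totals or TPM, and ranged from 0 to 1 (1 without control 2). The other loop, modifier and output genes held 3 with an unadjusted p below 0.05, against 1 on library totals, 1 with log2(TPM + 1), 1 with the replicate number as a block, 1 without control 1 and control 4 (a setting chosen after seeing the data), and 1 to 4 with each library left out. Genes past the study's cutoff numbered 1368 with edgeR's quasi-likelihood test, against 1978 with its likelihood ratio test and 1594 with its exact test. The paper names edgeR without saying which of its tests was used. The number was 718 with log2(TPM + 0.1), 319 with log2(TPM + 1), 583 with the replicate block, 881 without control 1 and control 4, and 867 to 2414 with each library left out. Same-numbered libraries of the groups deviated with correlations of -0.035, -0.50, -0.60 and 0.17, so the number was not taken as a pairing, and the block called 0 clock genes. With the block, the unadjusted p was 0.0607 for BMAL2, 0.0517 for BHLHE41 and 0.0824 for JUN, each above 0.05. With each library left out, the difference in log2 ratio ranged from -0.015 to 0.51 for NR1D1 over BMAL1, -1.31 to -0.34 for DBP over NFIL3 and -0.30 to 0.027 for PER2 over CRY1. The signs of small log2 fold changes turned, and the cause was not tested. CLOCK was 0.0016 with voom, 0.046 on library totals and 0.0032 without control 1 and control 4. NR1D2 was -0.013 with log2(TPM + 0.1) and -0.012 with log2(TPM + 1). NFIL3 was 0.056 on library totals, 0.042 with the block and 0.30 without control 1 and control 4. FKBP5 was 0.10 with voom, 0.064 on library totals, 0.0088 with log2(TPM + 0.1), 0.12 with the block and 0.13 without control 1 and control 4. TSC22D3 was -0.017 with DESeq2, -0.0045 with voom, -0.060 with log2(TPM + 0.1), -0.038 with log2(TPM + 1) and -0.15 without control 1 and control 4. With each library left out, CRY2 ranged from -0.14 to 0.097, CLOCK from -0.19 to 0.098, NR1D2 from -0.089 to 0.24, NFIL3 from -0.27 to 0.38, CIART from -0.099 to 0.31, FKBP5 from -0.29 to 0.21 and TSC22D3 from -0.025 to 0.12.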

Other observations

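Some genes that the modifier and output lists hold were divided by library and not by group, and they are named here after their values were seen. USP2, a deubiquitinase with a rhythm in many tissues, was at 52.7, 51.2 and 46.9 CPM in control 3, androstenone 1 and androstenone 2 and at 14.3 to 22.2 CPM in the other 5 libraries. POR, the electron donor of cytochrome P450 enzymes, was at 504, 490 and 569 CPM in the same 3 libraries and at 140 to 279 CPM in the others. LEO1, a subunit of the PAF1 complex, was at 56.7, 37.4 and 43.8 CPM against 18.8 to 27.4 CPM. TSPAN4, a tetraspanin, was at 4.48, 7.60 and 3.75 CPM against 18.9 to 59.2 CPM. These 3 libraries also had the highest motile cilium sums, and the part of tissue make-up was not tested. Between the groups, the unadjusted p-values of USP2, POR, LEO1 and TSPAN4 were 0.521, 0.235, 0.774 and 0.222 in edgeR's quasi-likelihood test.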
